A study of Mus musculus with 20 samples.

Results

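The mouse ovary was compared between estrus and diestrus in the ctrl line, with every gene in view. Of the 20 ovary libraries in the series, the 10 from ctrl animals were taken, 5 in estrus and 5 in diestrus, by the line and stage in their labels. The other 10 come from FL1, a line of the same founders bred for many generations for high fertility, and are used here only beside the ctrl values. All animals were female and 77 days old, with the genotype of ctrl labelled WT and that of FL1 labelled FL1, and each library came from the ovary tissue of 1 animal. The ctrl line is outbred and was never selected, so animals of 1 group differ in genotype. The stage was read from vaginal smears, with cornified cells alone taken as estrus and leucocytes alone as diestrus. The animals were killed with CO2 at the same time of day, and fat, tunica albuginea and oviduct were cut away. Replicate numbers only name the animals, and a number does not tie an estrus animal to a diestrus animal.

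In the estrous cycle, gonadotropins from the pituitary drive follicles to grow, and a surge of luteinizing hormone makes the ripe follicles ovulate around the start of estrus. The emptied follicles turn into corpora lutea, whose cells make progesterone, while granulosa and theca cells of the next follicles make estrogen and its androgen precursors. In mice corpora lutea of earlier cycles stay in the ovary for some time, so luteal tissue is present at every stage.

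The ctrl libraries held between 6087813 and 10352718 counts, with a median of 7020170 in estrus and 7021396 in diestrus. At these totals 3 counts, the floor used here for a gene that is present, were 2.9e-05% to 4.93e-05% of a library, which covers counting error only. Levels are given as CPM, counts scaled by library size and by the TMM factor, which corrects for differences in library composition. The libraries were made from the 3' ends of transcripts, so the number of reads does not grow with transcript length. Summed over marker lists, oocyte genes reached 225 to 508 CPM, granulosa genes 1462 to 4245 CPM and luteal genes 17626 to 59972 CPM, so all 3 kinds of ovarian cell were represented in every library. Fewer cells of a type and less RNA per cell cannot be told apart in these whole ovaries. The ctrl estrus library 5 stood apart. Its mean distance to the other estrus libraries was 92.9, where the other ctrl libraries lay 66.8 to 74.3 from their own stage. It also had the fewest detected genes (17484), the lowest granulosa sum (1462 CPM) and a luteal sum of 47681 CPM, where the other estrus libraries had 17626 to 35105 CPM and the diestrus libraries 34777 to 59972 CPM. Its fat marker sum was 456 CPM, and Cfd, a fat cell protease, reached 66.1 CPM against 0.273 to 9.02 CPM elsewhere. Counts are therefore also given without this library. Its luteal sum includes Star, Cyp11a1, Hsd3b1, Akr1c18, Prlr and Sfrp4, so calls of such genes gained without it are not separate support.

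Ovaries in estrus and diestrus differed in a limited set of genes. Of 13334 genes tested, 380 (2.85%) had a Benjamini-Hochberg adjusted p of 0.05 or less by the quasi-likelihood test of edgeR. In estrus 238 genes (1.78%) were higher and 142 (1.06%) were lower, and the change was over 2-fold in 110 and 67 of them (1.33% together). The median log2 fold change (log2FC, estrus minus diestrus) was 0.97 among the higher genes, -0.94 among the lower genes and -0.006 among all tested genes. In 320 of the 380 genes (2.40% of those tested) the 5 estrus libraries did not overlap the 5 diestrus libraries, which held for 4.50% of all tested genes. Without the ctrl estrus library 5, 516 genes passed (3.81%), 283 higher (2.09%) and 233 lower (1.72%), 349 of them among the 380. The number of calls varied with the library left out. It was 339, 243, 260 and 189 without estrus library 1, 2, 3 or 4. Without diestrus library 1, 2, 3, 4 or 5 it was 386, 235, 223, 176 and 351. Each such fit has fewer libraries and less power, so a drop alone does not show that a library carried the calls. DESeq2 called 768 genes (4.99%), with all of the 380 among them.

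Over all tested genes, a library was less like those of the other stage than those of its own. The mean Euclidean distance of log2 CPM was 82.9 between and 73.1 within stages, a difference of 9.83 (p = 0.00794 by a one-sided exact permutation test over all 126 splits, which is the smallest p the 5 against 5 design allows). The difference was 10.4 without estrus library 5.

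**Figure D1:**
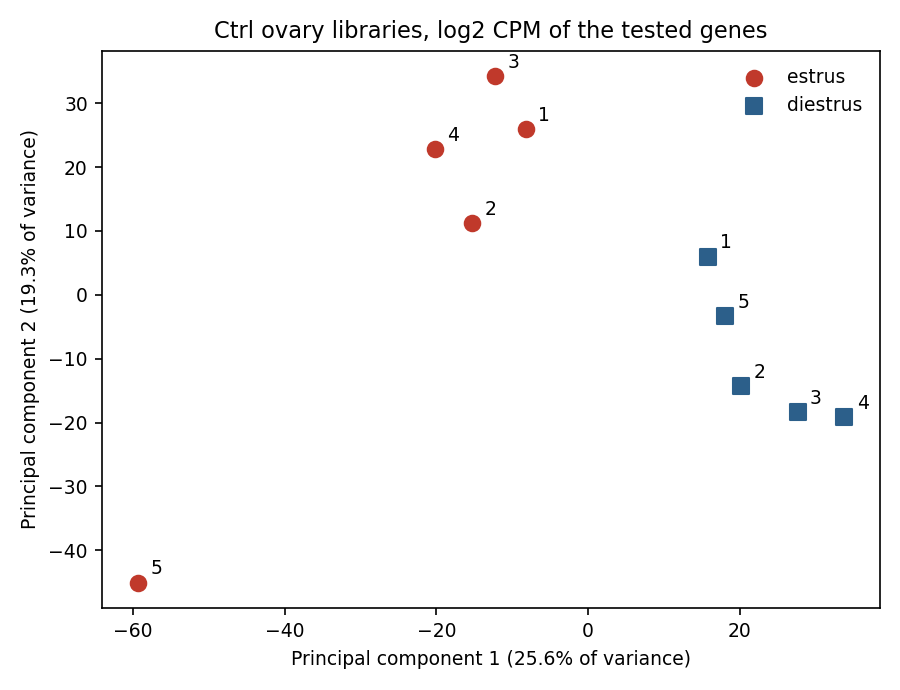
Each point is a ctrl library placed by the first and second principal components of log2 CPM over the tested genes (25.6% and 19.3% of the variance), with its replicate number beside it, red circles for estrus and blue squares for diestrus. The estrus libraries lie left of 0 and the diestrus libraries right of 0 on the horizontal axis, and estrus library 5 lies alone at -59.4 and -45.0.

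Among protein-coding genes higher in estrus, the largest differences were those of Adcyap1, Cyp11b1, Ptprn, Ren1 and Nts, which were plainly detected in estrus and close to absent in diestrus. Adcyap1 encodes the neuropeptide PACAP, which is known to appear in granulosa cells after the luteinizing hormone surge, and Ren1 encodes the protease renin. Cst8 (a cystatin of reproductive tissue) and Hsd17b7 (an enzyme of both cholesterol and estradiol synthesis) were among the largest differences in the other direction. For these 4 genes the RefSeq start region is shown, from 250 bases before to 50 bases after the start site in GRCm38.p6, read 5′ to 3′ along the gene. Capitals mark matches on either strand to the CCAAT box (CCAAT, or ATTGG on the opposite strand), the E-box (CACGTG) or the NR5A element (CAAGGTCA), the last of which is the core bound by the steroidogenic factors SF-1 and LRH-1. Adcyap1 has another start region in RefSeq that is not shown.
Adcyap1, chr17:93198767-93199066, plus strand: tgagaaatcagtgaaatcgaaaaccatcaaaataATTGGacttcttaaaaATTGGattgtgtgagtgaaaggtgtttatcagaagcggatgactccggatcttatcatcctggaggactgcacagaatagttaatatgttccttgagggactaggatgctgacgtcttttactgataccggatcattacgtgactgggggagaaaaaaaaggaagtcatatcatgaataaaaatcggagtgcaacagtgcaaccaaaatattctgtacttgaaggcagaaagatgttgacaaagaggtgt
Ren1, chr1:133350424-133350723, plus strand: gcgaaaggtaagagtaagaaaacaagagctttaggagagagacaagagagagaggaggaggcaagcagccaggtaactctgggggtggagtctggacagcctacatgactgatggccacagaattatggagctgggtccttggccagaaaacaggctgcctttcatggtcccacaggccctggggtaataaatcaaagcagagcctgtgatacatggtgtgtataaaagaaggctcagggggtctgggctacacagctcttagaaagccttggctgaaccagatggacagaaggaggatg
Cst8, chr2:148798589-148798888, plus strand: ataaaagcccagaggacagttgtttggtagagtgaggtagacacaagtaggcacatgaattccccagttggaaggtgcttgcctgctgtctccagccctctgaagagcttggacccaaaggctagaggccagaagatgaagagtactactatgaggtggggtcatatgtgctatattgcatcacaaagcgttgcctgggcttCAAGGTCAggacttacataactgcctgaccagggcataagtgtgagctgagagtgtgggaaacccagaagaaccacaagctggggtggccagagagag
Hsd17b7, chr1:169969156-169969455, minus strand: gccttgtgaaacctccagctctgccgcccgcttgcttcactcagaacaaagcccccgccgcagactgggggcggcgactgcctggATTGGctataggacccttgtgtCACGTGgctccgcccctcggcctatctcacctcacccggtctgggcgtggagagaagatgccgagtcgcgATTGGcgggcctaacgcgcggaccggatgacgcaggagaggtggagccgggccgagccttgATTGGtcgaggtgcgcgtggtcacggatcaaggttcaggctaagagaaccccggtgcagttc
The Adcyap1 region held CCAAT boxes 216 and 200 bases before the start site. The Cst8 region held an NR5A element 48 bases before it, and the Hsd17b7 region an E-box 143 bases before it and CCAAT boxes at 165, 73 and 12 bases. No match was found in the Ren1 region. Also searched were the SRE (TCACNCCAC), E2F element (TTTNGCGC), CRE (TGACGTCA) and AP-1 element (TGANTCA), where N is any base. None of these matched in any region shown. Among the 27025 genes with a start region in RefSeq, 41.1% held a CCAAT box, 8.09% an E-box and 1.76% an NR5A element. Among the tested genes with a start region, from which the calls come, the shares were 42.6%, 11.6% and 1.25%. Of the called genes matched to a start region, 39.4%, 6.86% and 1.81% held them. The E-box share of the called genes was thus below that of the tested genes, and the NR5A share, which rests on 5 called genes, was above it. Whether these shares differ beyond sampling was not tested. The NR5A element was in none of the 15 steroid hormone synthesis genes matched. A match describes the letters and does not show binding.

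Adcyap1 (chr17:93199017-93206537) was measured at 86.5, 21.6, 53.0, 97.2 and 34.9 CPM in the 5 estrus libraries and at 1.22, 0.956, 1.05, 0.820 and 0.460 CPM in the 5 diestrus libraries. All estrus libraries lay far above all diestrus libraries, although they differed several fold among themselves. The log2FC was 5.96 ± 0.46 (SE, edgeR adjusted p = 2.95e-05). Ren1 (chr1:133350510-133360325) had 44.0, 29.3, 107, 43.6 and 34.2 CPM in estrus and 2.07, 0.410, 0.299, 0.820 and 1.99 CPM in diestrus, again without overlap, with estrus library 3 the highest. Its log2FC was 5.44 ± 0.49 (edgeR adjusted p = 0.000105). Some mouse strains carry a second renin gene, Ren2, that the reference genome lacks, and whether its reads were counted on Ren1 was not tested.

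Ptprn, a membrane protein of dense-core secretory granules, was at 5.58, 5.92, 5.86, 9.55 and 9.99 CPM in estrus. In diestrus it was at 0 CPM in libraries 1 to 4 and at 0.613 CPM in library 5, and the log2FC was 5.87 ± 0.69 (edgeR adjusted p = 0.000725). Nts, the precursor of neurotensin, was at 2.39, 3.29, 6.12, 9.74 and 11.6 CPM in estrus and at 0, 0.683, 0.149, 0 and 0 CPM in diestrus (log2FC 5.21 ± 0.78, edgeR adjusted p = 0.00394). Cplx1, a complexin that acts in regulated exocytosis, was at 2.47 to 10.5 CPM in estrus and 0.149 to 2.05 CPM in diestrus (log2FC 2.78 ± 0.53, edgeR adjusted p = 0.0150). In these low genes the size of the fold rests on a few counts in diestrus, and in Cplx1 estrus library 2 and diestrus library 2 had the same number of counts (15 each). Ptprn overlaps a gene on the opposite strand, as do Cyp11b1, Lox, Wnt6, Tagln and others named below, and because the strand setting of the counting is not given in the sources used here, reads of such partners may have been counted with them. Pappa2, Bace2, Col3a1 and Col5a2 overlap a gene on their own strand.

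Cyp11b1, known as the adrenal enzyme that completes the synthesis of corticosterone, had 7.31, 12.5, 49.6, 11.3 and 10.9 CPM in estrus and 0.282, 0.137, 0.897, 0 and 0.153 CPM in diestrus (log2FC 5.88 ± 0.73, edgeR adjusted p = 0.00115). Estrus library 3 was the highest and all 5 estrus libraries lay above all diestrus libraries. Pappa2, a protease that frees insulin-like growth factors from their binding proteins, was at 4.21 to 17.4 CPM in estrus and at 0 to 0.747 CPM in diestrus (log2FC 4.87 ± 0.61, edgeR adjusted p = 0.00126). Xpnpep2, a membrane aminopeptidase that cleaves bradykinin, was at 13.3 to 23.3 CPM against 0 to 1.91 CPM (log2FC 3.86 ± 0.43, edgeR adjusted p = 0.000515). Mansc4, a membrane protein, was at 5.08 to 22.1 CPM against 0 to 2.59 CPM (log2FC 3.30 ± 0.63, edgeR adjusted p = 0.0150).

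Trf, the iron carrier transferrin, was abundant enough for a fold that does not rest on few counts. It was measured at 105, 78.7, 144, 109.8 and 135 CPM in estrus and at 21.3, 18.6, 22, 11.6 and 30.3 CPM in diestrus, 5.51-fold higher in estrus (log2FC 2.46 ± 0.22, edgeR adjusted p = 0.000105). Its 3' end is shared with the overlapping gene model Gm20425. Lox, the enzyme that cross-links collagen and elastin, was at 37.9, 67.0, 41.3, 77.9 and 109.6 CPM against 12.7, 11.9, 11.8, 8.86 and 8.28 CPM (log2FC 2.63 ± 0.28, edgeR adjusted p = 0.000446). In both genes the lowest estrus library was well above the highest diestrus library. Wnt10a, a WNT ligand, was at 6.11 to 24.6 CPM in estrus and 0.448 to 5.82 CPM in diestrus (log2FC 2.49 ± 0.52, edgeR adjusted p = 0.0228). Its groups nearly touched, and the call was lost without estrus library 4 or diestrus library 2 or 4, with an edgeR adjusted p of up to 0.0712, and under limma-voom (adjusted p = 0.0575).

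Adcyap1 and Ren1 were also among the 5 genes higher in estrus with the smallest adjusted p, and the other 3 follow. Wnt6, another WNT ligand, was at 78.5, 80.5, 79.4, 75.8 and 69.4 CPM in estrus and at 28.7, 22.7, 21.7, 25.1 and 21.6 CPM in diestrus (log2FC 1.68 ± 0.11, edgeR adjusted p = 1.11e-05). Tinagl1, a secreted matrix protein, averaged 103 ± 15.5 CPM in estrus and 24.3 ± 5.47 CPM in diestrus (SD, n = 5 each, log2FC 2.08 ± 0.16, edgeR adjusted p = 2.95e-05). Smarca1, the ATPase of a chromatin remodelling complex, averaged 544 ± 67.1 and 209 ± 21.1 CPM (SD, n = 5 each, log2FC 1.38 ± 0.12, edgeR adjusted p = 5.57e-05). The libraries of these 3 genes did not overlap between stages. Relative to the stage mean, they lay closer together within a stage than those of Adcyap1 or Ren1.

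**Figure D2:**
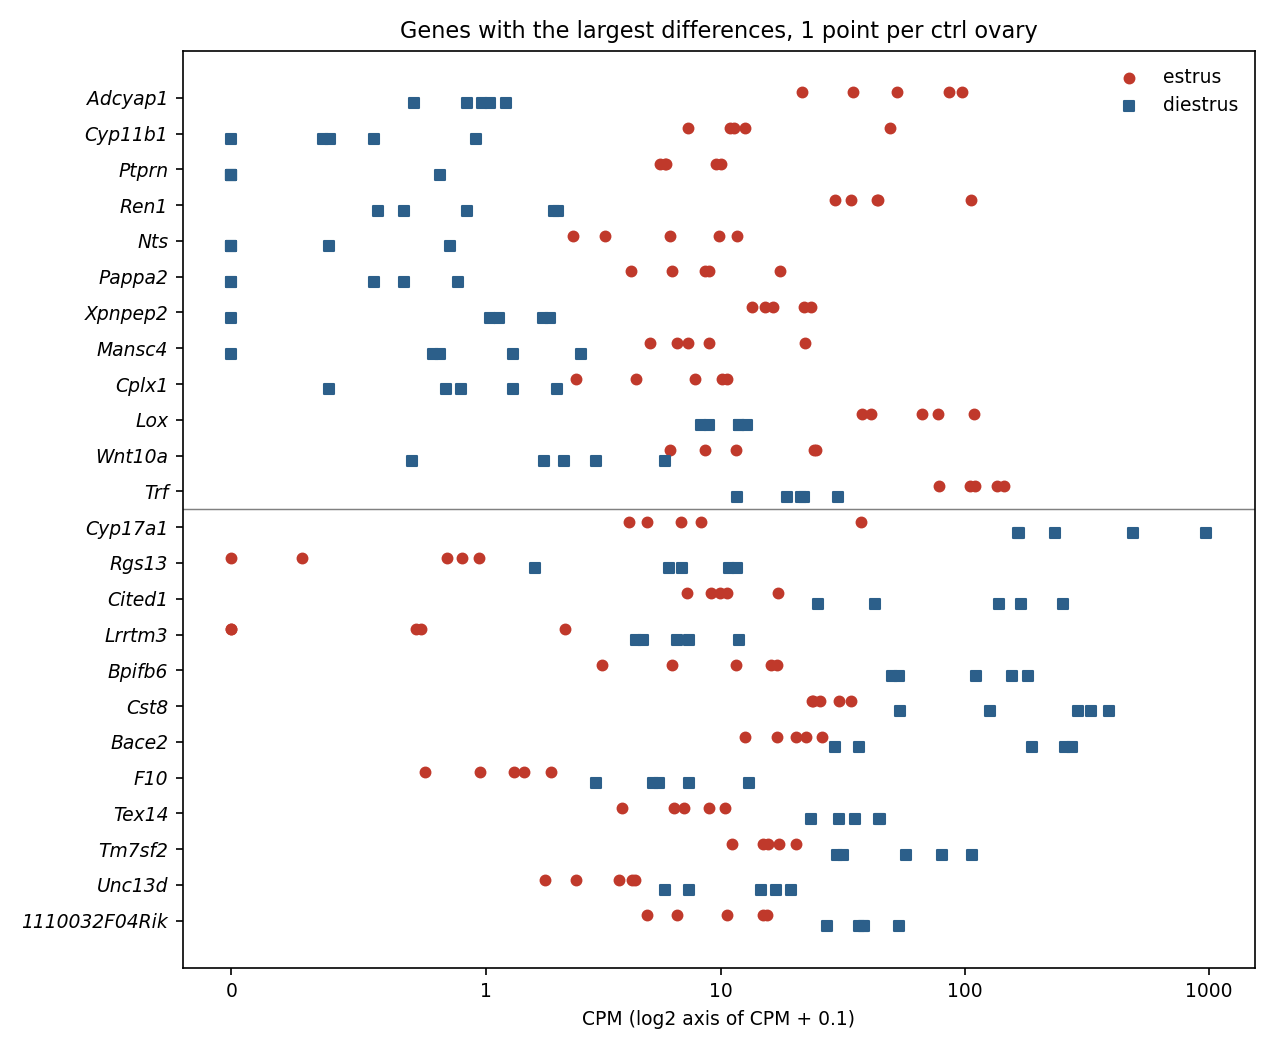
Each point is the CPM of 1 ctrl library, on a log2 axis with a small offset so that 0 can be drawn, for the 12 genes with the largest log2FC in each direction among called protein-coding genes without overlap and with a mean of at least 5 CPM in the higher stage. In the upper block the red estrus points lie right of the blue diestrus points and in the lower block left of them, with Adcyap1 from 21.6 CPM upward against at most 1.22 CPM, and Cyp17a1 at most 37.6 CPM against at least 165 CPM.

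Among the genes of steroid hormone synthesis, 2 of 17 tested members (11.8%) were lower in estrus and none was higher, against 1.06% and 1.78% of all tested genes, with a median log2FC of -0.62 over the list and -0.006 over all tested genes. This list and those below were chosen with earlier results of these data known. A share above that of all tested genes is therefore not independent evidence. Cyp17a1 (chr19:46667165-46673172), the theca cell enzyme that turns progestins into androgens, had 8.24, 4.11, 37.6, 6.84 and 4.91 CPM in estrus and 973, 234, 165, 167 and 490.4 CPM in diestrus. The highest estrus library, number 3, stayed below the lowest diestrus library, and diestrus libraries 1 and 5 were the highest. The log2FC was -5.02 ± 0.71, 32.5-fold lower in estrus (edgeR adjusted p = 0.00299). Theca markers, Cyp17a1 included, summed to 847 to 2399 CPM in estrus and 909 to 2702 CPM in diestrus. Aldh1a1 had by far the highest median of them, 1072 CPM in estrus and 1417 CPM in diestrus. These sums thus do not measure the amount of theca cells. Cyp17a1 was the only one of 7 tested theca markers that passed the test (14.3% lower, against 1.06% of all tested genes).

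Hsd17b7 was measured at 66.3, 59.9, 47.2, 52.5 and 91.5 CPM in estrus and at 414, 639, 1024, 898 and 90.6 CPM in diestrus (log2FC -3.27 ± 0.48, edgeR adjusted p = 0.00360). Diestrus library 5 was as low as estrus library 5, so the groups overlapped by 1 library on each side, while the other 4 diestrus libraries were over 4 times the highest estrus library. The highly expressed enzymes that lead from cholesterol to progesterone did not pass the test. Star, which carries cholesterol into mitochondria, averaged 3751 ± 2132 CPM in estrus and 6115 ± 2247 CPM in diestrus (SD, n = 5 each, edgeR adjusted p = 0.421). Cyp11a1, which makes pregnenolone, averaged 6543 ± 2994 and 9721 ± 1589 CPM (edgeR adjusted p = 0.312), and Hsd3b1, which makes progesterone, 4892 ± 755 and 7649 ± 1918 CPM (edgeR adjusted p = 0.0810). Akr1c18, which inactivates progesterone, averaged 6891 ± 4293 and 13869 ± 3612 CPM (edgeR adjusted p = 0.219).

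The aromatase gene Cyp19a1, which makes estrogen, was at 5.71, 9.38, 10.4, 16.6 and 1.05 CPM in estrus and at 33.8, 33.7, 13.2, 12.6 and 36.0 CPM in diestrus (log2FC -1.56 ± 0.48, edgeR adjusted p = 0.117). Only the highest estrus library overlapped the diestrus range. Hsd17b1, the granulosa enzyme that makes estradiol, was at 27.3 to 152 CPM in estrus and 79.1 to 126 CPM in diestrus, with a log2FC of -0.04 ± 0.32. Without estrus library 5, whose luteal sum was in the diestrus range, 4 of the members passed and all were lower in estrus. Of all genes tested in that fit, 1.72% were lower. Cyp17a1 and Hsd17b7 were joined by Cyp11a1, at a log2FC of -0.84 (edgeR adjusted p = 0.0427). The other was Fdx1, the electron carrier of Cyp11a1, at -0.75 (edgeR adjusted p = 0.0256). Cyp11a1 is itself part of that luteal sum, and whether Fdx1 follows the luteal part was not tested. Neither call gained without the library is separate support.

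All 19 tested genes of cholesterol synthesis had a negative log2FC, with a median of -0.61, and 2 of them (10.5%, against 1.06% of all tested genes) passed the test, Hsd17b7 and Tm7sf2, a sterol reductase of the pathway. Tm7sf2 was at 17.3, 14.8, 11.1, 15.5 and 20.3 CPM in estrus and at 29.9, 80.7, 107, 57.4 and 31.7 CPM in diestrus, without overlap (log2FC -1.96 ± 0.33, edgeR adjusted p = 0.00692). Another gene overlaps it on the same strand. Lss, which closes the sterol ring, averaged 20.7 ± 6.10 and 52.0 ± 28.9 CPM (SD, n = 5 each, edgeR adjusted p = 0.0644). Fdps, which makes farnesyl diphosphate, averaged 52.2 ± 29.5 and 116 ± 61.2 CPM (SD, n = 5 each, edgeR adjusted p = 0.165). In both genes diestrus library 5 was the lowest of its stage. The luteal markers had a median log2FC of -0.67, and their sum was 17626 to 35105 CPM in estrus libraries 1 to 4 and 34777 to 59972 CPM in diestrus. Luteal markers and steroid genes share members such as Cyp11a1, and the part of luteal cells in the steroid and cholesterol genes was not tested. Without estrus library 5, 6 members passed, all lower in estrus, against 1.72% of all genes tested in that fit. Fdps was among them, with a log2FC of -1.52 (edgeR adjusted p = 0.0449). Because the luteal sum of that library was in the diestrus range, calls gained without it are not separate support. Of 19 tested genes of cholesterol uptake and regulation, 1 (5.26%) was higher and none lower, against 1.78% and 1.06% of all tested genes. That gene was Lipa, the lysosomal lipase, with a log2FC of 0.47 ± 0.11 (edgeR adjusted p = 0.0441), and its call held in 1 of the 10 fits that leave out a library, with an adjusted p of up to 0.110, and was lost under limma-voom (adjusted p = 0.0610). Scarb1, the HDL receptor, had a log2FC of -0.80 ± 0.36 (edgeR adjusted p = 0.314).

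**Figure D3:**
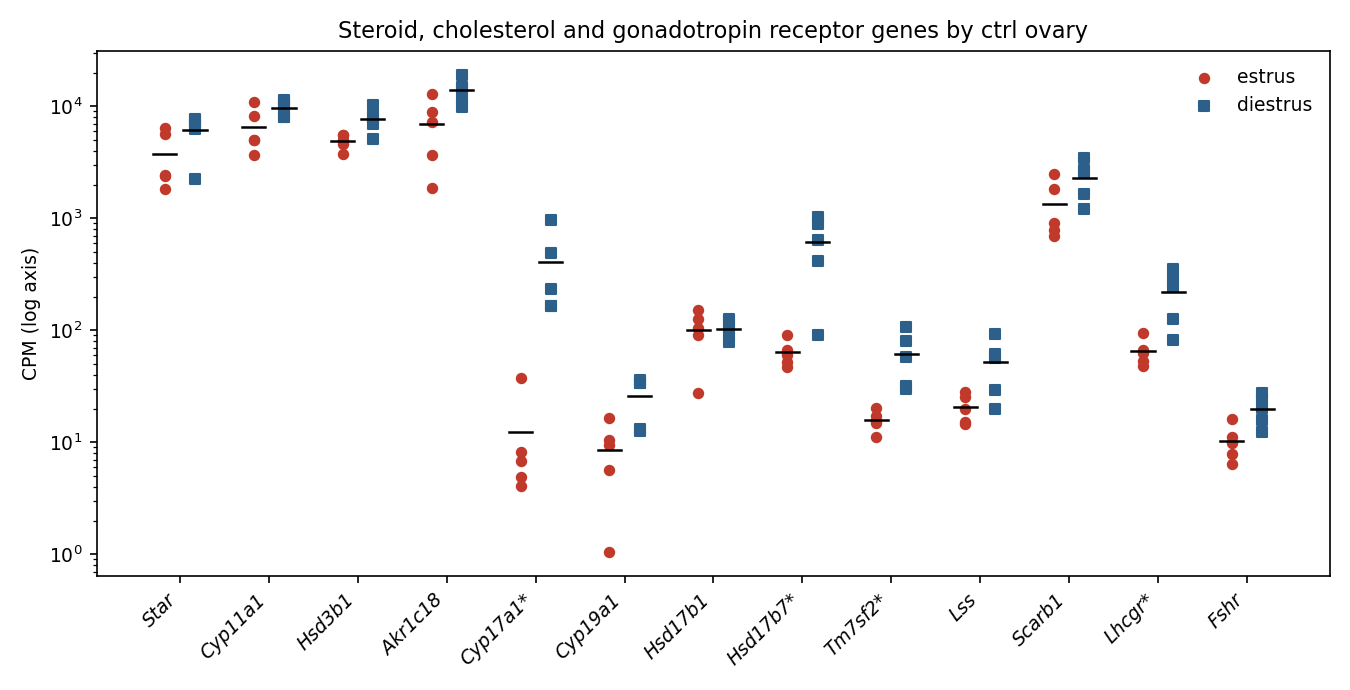
Each point is the CPM of 1 ctrl library on a log axis, red circles for estrus and blue squares for diestrus, black bars are group means, and an asterisk marks called genes. Cyp17a1, Hsd17b7, Tm7sf2 and Lhcgr are marked, and for Hsd17b7 the lowest diestrus point (90.6 CPM) lies within the estrus points.

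Of 17 tested hormone receptors, 1 was lower and 1 higher in estrus (5.88% each), against 1.06% and 1.78% of all tested genes. Lhcgr, the receptor of luteinizing hormone, was at 63.1, 66.7, 53.2, 93.8 and 47.7 CPM in estrus and at 127, 242, 356, 286 and 81.2 CPM in diestrus (log2FC -1.75 ± 0.34, edgeR adjusted p = 0.0161). Diestrus library 5 fell within the estrus range and the other 4 lay above it. Lepr, the leptin receptor, was at 9.97 to 24.9 CPM in estrus and 3.45 to 8.89 CPM in diestrus (log2FC 1.74 ± 0.31, edgeR adjusted p = 0.00947), and part of its 3' end is also in the gene model Gm12797. Fshr, the receptor of follicle-stimulating hormone, had a log2FC of -0.95 ± 0.27 (edgeR adjusted p = 0.0812). Esr2, the estrogen receptor of granulosa cells, averaged 43.4 ± 10.2 CPM in estrus and 69.0 ± 14.6 CPM in diestrus (SD, n = 5 each, edgeR adjusted p = 0.0580). Prlr, the prolactin receptor of luteal cells, averaged 1089.6 ± 315 and 1895 ± 502 CPM (edgeR adjusted p = 0.0746), and it passed without estrus library 5 with a log2FC of -0.97 (edgeR adjusted p = 0.0218).

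Among 24 tested genes of inhibins, activins and BMP signalling, 2 (8.33%) were higher and 1 (4.17%) was lower in estrus, against 1.78% and 1.06% of all tested genes. Inhba, the shared subunit of activin A and inhibin A, had 159, 103, 282, 270.3 and 77.5 CPM in estrus and 613, 518, 358, 323 and 719 CPM in diestrus (log2FC -1.50 ± 0.34, edgeR adjusted p = 0.0336). The groups did not overlap, but the call was lost without estrus library 1 or 2 or diestrus library 1, 2 or 5, with an adjusted p of up to 0.0776. Fstl3, a secreted protein that binds activin, averaged 41.7 ± 13.1 CPM in estrus and 21.1 ± 3.99 CPM in diestrus (log2FC 0.98 ± 0.20, edgeR adjusted p = 0.0209), and Id2, a target of BMP signalling, at 408 to 711 and 266 to 389 CPM (log2FC 0.72 ± 0.15, edgeR adjusted p = 0.0228). The Fstl3 call was lost without estrus library 4 or diestrus library 3 or 4, and the Id2 call without estrus library 4 or diestrus library 2 or 4, with adjusted p of up to 0.0630 and 0.0685. Inha, the alpha subunit of the inhibins, had a log2FC of -0.23 ± 0.24 and Fst, the activin inhibitor follistatin, one of -0.78 ± 0.33, and neither passed (edgeR adjusted p = 0.725 and 0.276).

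Of 32 tested genes of collagens and other matrix components, 8 (25.0%) were higher and none was lower, against 1.78% and 1.06% of all tested genes, and 28 had a positive log2FC, with a median of 0.39. Col3a1, a collagen of soft connective tissue, was at 1089.8, 1219.5, 1691, 1808 and 1019 CPM in estrus and at 551, 570.4, 621, 531 and 614 CPM in diestrus (log2FC 1.24 ± 0.16, edgeR adjusted p = 0.00167). Col1a1, the main chain of fibrous collagen, was at 757, 756, 959.8, 1296 and 819 CPM against 508, 417, 476, 353 and 520.3 CPM (log2FC 1.01 ± 0.16, edgeR adjusted p = 0.00601). The stages did not overlap in either gene. Col5a2, which sets the width of collagen fibrils, had a log2FC of 1.29 ± 0.14 (edgeR adjusted p = 0.000483), and its partner chain Col5a1 one of 0.93 ± 0.13 (edgeR adjusted p = 0.00275). Col15a1 and the proteoglycan Bgn, together with the basement membrane chains Col4a1 and Col18a1, were the other members, with log2FC from 0.63 to 0.96. The calls of Col4a1 and Col18a1 held in 5 and 3 of the 10 fits that leave out a library, with adjusted p of up to 0.0821 and 0.117, that of Col18a1 was also lost under limma-voom (adjusted p = 0.0582), and that of Bgn was lost without diestrus library 4 (adjusted p = 0.0541).

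Markers of smooth muscle and pericytes, cells that also make collagens, were counted beside this group. All 10 tested markers had a positive log2FC (median 0.68), and 2 (20%) were called higher, against 1.78% of all tested genes. Their sum was 2124 to 3235 CPM in estrus and 1491 to 2317 CPM in diestrus. Tagln, a protein of contractile fibres, was at 104, 115, 110.1, 143 and 154 CPM in estrus and at 82.2, 56.0, 43.6, 46.8 and 56.1 CPM in diestrus (log2FC 1.13 ± 0.17, edgeR adjusted p = 0.00417). Myh11, smooth muscle myosin, had a log2FC of 0.64 ± 0.14 (edgeR adjusted p = 0.0313), which held in 3 of the 10 fits that leave out a library (adjusted p of up to 0.0898). The part of these cells in the matrix genes was not tested.

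Of 24 tested proteases and inhibitors of matrix turnover, 5 (20.8%) were higher and 2 (8.33%) lower in estrus, against 1.78% and 1.06% of all tested genes. Mmp2, which cleaves basement membrane collagen, was at 209 to 589.9 CPM in estrus, with a mean of 346, and at 77.7 to 141 CPM in diestrus, with a mean of 103 (log2FC 1.75 ± 0.27, edgeR adjusted p = 0.00417). Adamts1, a protease made in follicles at ovulation that cuts versican, was at 88.4, 92.8, 77.2, 119 and 137 CPM against 30.8, 22.8, 25.6, 43.1 and 30.7 CPM (log2FC 1.75 ± 0.19, edgeR adjusted p = 0.000483). Vcan, the proteoglycan versican that Adamts1 cuts, was higher as well, at 126 ± 19.8 against 59.1 ± 7.49 CPM (SD, n = 5 each, log2FC 1.09 ± 0.13, edgeR adjusted p = 0.000725). No library of 1 stage reached the other stage in these 3 genes. Mmp11 and Mmp19, other metalloproteases, had log2FC of 0.83 ± 0.16 and 0.91 ± 0.18 (edgeR adjusted p = 0.0152 and 0.0187), the latter lost without estrus library 4 (adjusted p = 0.0561). Timp4, a metalloprotease inhibitor, averaged 5.79 ± 2.53 and 1.13 ± 0.853 CPM (SD, n = 5 each, edgeR adjusted p = 0.0247, called in 5 of the 10 fits that leave out a library, adjusted p of up to 0.0632).

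Adamts5, which also cuts proteoglycans, went the other way, with 10.4, 18.8, 19.9, 18.0 and 11.9 CPM in estrus and 45.9, 24.2, 38.0, 47.9 and 39.5 CPM in diestrus (log2FC -1.30 ± 0.22, edgeR adjusted p = 0.00739). Ctsl, a lysosomal protease, was also lower (log2FC -0.66 ± 0.16, edgeR adjusted p = 0.0394), with the call kept in 4 of the 10 fits that leave out a library and an adjusted p of up to 0.0966. Adamts1 and Adamts5 are neighbours on chromosome 16 and differed in opposite directions.

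WNT signalling genes were higher in estrus in 5 of 21 tested (23.8%) and lower in none, against 1.78% and 1.06% of all tested genes, and the median log2FC of the list was 0.13. Wnt4, a ligand needed for ovary development, was at 160.2, 156, 156, 247 and 151 CPM in estrus and at 52.2, 43.7, 71.7, 109.6 and 55 CPM in diestrus (log2FC 1.39 ± 0.23, edgeR adjusted p = 0.00674). Axin2, a common target gene of the pathway, was at 22.6, 23.0, 21.9, 22.4 and 11.2 CPM against 9.32, 9.97, 7.62, 6.73 and 10.7 CPM (log2FC 1.19 ± 0.22, edgeR adjusted p = 0.0114). In Axin2 the estrus library 5 lay near the diestrus libraries. Sfrp1, a secreted antagonist, was higher too (log2FC 1.32 ± 0.20, edgeR adjusted p = 0.00437), as was Dkk3 (log2FC 0.57 ± 0.14, edgeR adjusted p = 0.0467), whose call held in 2 of the 10 fits that leave out a library, with an adjusted p of up to 0.123. The fifth member was Wnt6, described above.

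Estrus library 5 decided whether other WNT genes passed. Fzd1, a receptor, was at 37.9, 41.5, 45.3 and 57.9 CPM in estrus libraries 1 to 4 but at 5.61 CPM in library 5, and at 7.34 to 19.2 CPM in diestrus. With all libraries the log2FC was 1.63 ± 0.43 (edgeR adjusted p = 0.0667), and without library 5 it was 1.90 (edgeR adjusted p = 0.00104). Sfrp4, an antagonist that is abundant in luteal cells, was at 2179, 1804, 654, 1047 and 4042 CPM in estrus and at 4049 to 6475 CPM in diestrus. Its log2FC was -1.39 ± 0.37 (edgeR adjusted p = 0.0691) with and -1.85 (edgeR adjusted p = 0.00624) without library 5.

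The insulin-like growth factor system had 3 of 16 tested members (18.8%) higher and none lower, against 1.78% and 1.06% of all tested genes. Igfbp2, a binding protein, was at 82.4, 77.7, 105, 74.5 and 124 CPM in estrus and at 32.6, 25.3, 13.6, 21.2 and 25.0 CPM in diestrus (log2FC 1.97 ± 0.21, edgeR adjusted p = 0.000483). Igfbp4, another, averaged 1167 ± 222 and 581 ± 181 CPM (SD, n = 5 each, log2FC 1.01 ± 0.21, edgeR adjusted p = 0.0207). Igfbp4 was called in 5 of the 10 fits that leave out a library (adjusted p of up to 0.0553), and its 3' end shares sequence with Echs1. The third was Pappa2, described above. Neither binding protein overlapped between the stages.

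**Figure D4:**
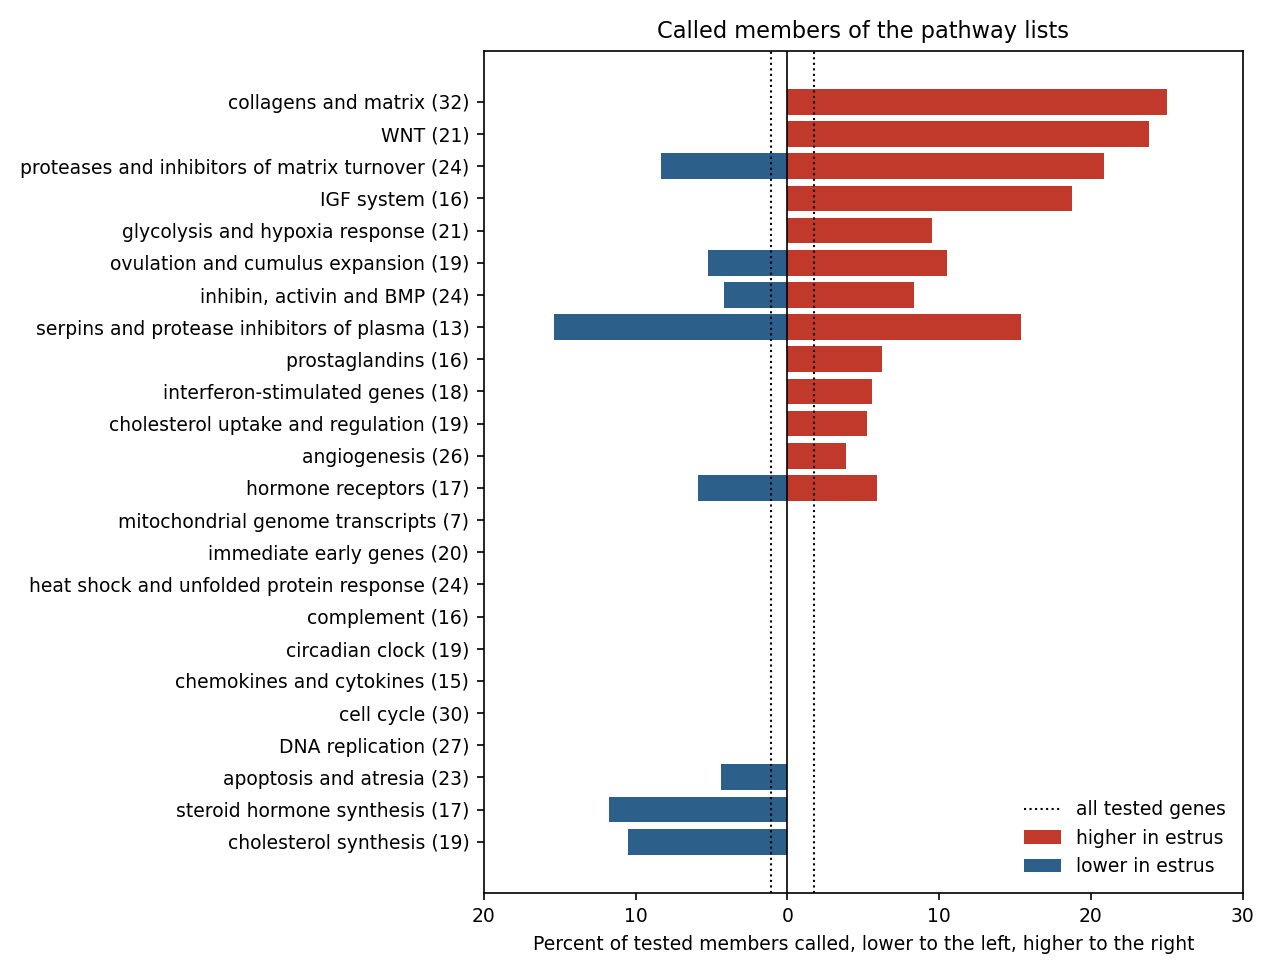
Bars give the percent of tested members of each pathway list (number tested in brackets) that were called higher (red, to the right) or lower (blue, to the left) in estrus, and dotted lines give the same for all tested genes (1.78% and 1.06%). Collagens and matrix reach 25.0% higher, WNT 23.8%, and steroid hormone synthesis 11.8% lower, while 8 of the 24 lists have no called member.

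Genes of ovulation and cumulus expansion were called in 3 of 19 tested. Adamts1 and Vcan were higher (10.5%) and Ctsl lower (5.26%), against 1.78% and 1.06% of all tested genes. Some genes that the luteinizing hormone surge induces were low in both stages. Ptgs2, the inducible prostaglandin synthase, was at 0.951 ± 0.231 CPM in estrus and 0.514 ± 0.443 CPM in diestrus (SD, n = 5 each) and was too low to be tested. Ptgs1, the constitutive form, was at 25.4, 14.0, 15.7, 25.2 and 38.4 CPM in estrus and at 6.03, 9.15, 7.62, 3.28 and 7.20 CPM in diestrus (log2FC 1.83 ± 0.31, edgeR adjusted p = 0.00692). It was the only one of 16 tested prostaglandin genes that passed (6.25%, against 1.78% of all tested genes called higher).

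In other lists 1 or 2 members were called. Called higher were 3.85% of the angiogenesis, 9.52% of the glycolysis and hypoxia and 5.56% of the interferon-stimulated genes, against 1.78% of all tested genes. Called lower were 4.35% of the apoptosis and atresia genes, against 1.06%. Apln, a ligand of endothelial cells, was the only one of 26 angiogenesis genes, at 14.0 to 36.1 CPM in estrus and 2.15 to 11.1 CPM in diestrus (log2FC 1.71 ± 0.36, edgeR adjusted p = 0.0226, lost without estrus or diestrus library 4, with an adjusted p of up to 0.0655). All 12 tested endothelial markers had a negative log2FC (median -0.14) and none passed. Hk1 and Slc16a3, a hexokinase and a lactate exporter, were the 2 of 21 glycolysis and hypoxia genes (log2FC 0.58 ± 0.13 and 1.11 ± 0.24), and Gbp2 was the 1 of 18 interferon-stimulated genes (log2FC 0.78 ± 0.19). These calls held in 5, 4 and 2 of the 10 fits that leave out a library, with an adjusted p of up to 0.0840, 0.0792 and 0.117. Foxo1, a transcription factor of granulosa cells, was the 1 of 23 apoptosis and atresia genes and was lower, at 241 to 512 CPM against 555 to 948 CPM (log2FC -0.85 ± 0.20, edgeR adjusted p = 0.0408), which held in 2 of the 10 fits (adjusted p of up to 0.0981).

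The serpins and plasma protease inhibitors were split, with 2 of 13 tested higher and 2 lower (15.4% each), against 1.78% and 1.06% of all tested genes. Serpina3n, an acute phase inhibitor, was at 13.7, 18.8, 40.2, 24.4 and 32.1 CPM in estrus and at 11.4, 7.24, 0.897, 3.61 and 2.30 CPM in diestrus (log2FC 2.29 ± 0.49, edgeR adjusted p = 0.0247, lost without estrus library 3 or 4 or diestrus library 4, adjusted p of up to 0.0732). Serpinf1, an inhibitor of blood vessel growth, had a log2FC of 0.75 ± 0.15 (edgeR adjusted p = 0.0166). Cst8 was lower, as was Itih5, which binds hyaluronan (log2FC -0.62 ± 0.13, edgeR adjusted p = 0.0217, called in 7 of the 10 fits that leave out a library, adjusted p of up to 0.0690).

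No member passed in 8 pathway lists, namely cell cycle (30 tested), DNA replication (27), circadian clock (19), immediate early genes (20), complement (16), chemokines and cytokines (15), mitochondrial transcripts (7) and heat shock and unfolded protein response (24). Some of these leaned to 1 side. In the cell cycle list 24 of 30 and in the DNA replication list 21 of 27 had a positive log2FC (medians 0.18 and 0.12), and among immediate early genes 18 of 20 had a negative one (median -0.24). Members of a list share cells and libraries, so these counts are not independent. Over all lists, 47 of 540 tested genes (8.70%) were called, against 2.85% of all tested genes, 37 higher and 10 lower, and 25 of the 47 were called in every fit that leaves out 1 ctrl library. Because the lists were chosen with earlier results of these data known, the larger share is not independent evidence.

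No member was called in 9 of the 13 lists of cell type markers. Shares called higher were 8.33% for luteal, 11.1% for macrophage and 20% for smooth muscle and pericyte markers, against 1.78% of all tested genes. Shares called lower were 8.33% for luteal and 14.3% for theca markers, against 1.06%. Of 12 tested luteal markers 10 had a negative log2FC (median -0.67), with Lhcgr lower and Parm1, a membrane glycoprotein, higher (log2FC 0.83 ± 0.19, edgeR adjusted p = 0.0360, called in 2 of the 10 fits that leave out a library, adjusted p of up to 0.0966). Without estrus library 5, 4 luteal markers were called lower and 1 higher, against 1.72% and 2.09% of all genes tested in that fit. These markers make up the luteal sum by which that library stood apart, so calls gained without it are not separate support. Of 9 macrophage markers, Cd68 was higher (log2FC 0.82 ± 0.20, edgeR adjusted p = 0.0437, called in 2 of the 10 fits, adjusted p of up to 0.112, and not by limma-voom, adjusted p = 0.0667). None of the 11 granulosa, 13 oocyte, 10 surface epithelium, 4 oviduct, 4 fat, 5 blood, 12 endothelium or 1 lymphocyte markers tested passed, and the neutrophil markers were too low to be tested. The sum of the blood markers was 762 to 1588 CPM in estrus and 439 to 2806 CPM in diestrus, and that of the oocyte markers 225 to 502 and 260 to 508 CPM.

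Further genes with the largest differences were lower in estrus. Cited1, a transcriptional coregulator, was at 17.1, 9.87, 9.11, 10.6 and 7.19 CPM in estrus and at 42.7, 169.7, 254, 138 and 25.0 CPM in diestrus (log2FC -3.53 ± 0.54, edgeR adjusted p = 0.00417). Cst8 (chr2:148798785-148805595) was at 34.1, 30.6, 23.7, 23.9 and 25.4 CPM in estrus and at 127, 328, 292, 388 and 54.3 CPM in diestrus (log2FC -3.11 ± 0.42, edgeR adjusted p = 0.00209). Bpifb6, a lipid-binding protein, was at 3.19 to 17 CPM and at 53.6, 111, 182, 156 and 50.4 CPM (log2FC -3.36 ± 0.46, edgeR adjusted p = 0.00224). All estrus libraries of these genes lay below all diestrus libraries, and diestrus libraries 1 and 5 lay below the other 3. Bace2, an aspartyl protease, had 12.5 to 26.0 CPM in estrus and 37.0, 189, 276, 258 and 29.3 CPM in diestrus (log2FC -3.00 ± 0.56, edgeR adjusted p = 0.0131), the same order, and did not pass by limma-voom (adjusted p = 0.0985). Unc13d, which primes secretory granules, was also lower (log2FC -1.93 ± 0.37, edgeR adjusted p = 0.0150) but not by limma-voom (adjusted p = 0.0519), and words of its 3' end recur in 8 other genes.

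The order of the diestrus libraries was examined over all genes after this had been seen, as a description with no test. Diestrus libraries 1 and 5 were the 2 lowest of the 5 in 42 of the 142 genes lower in estrus (29.6%), in 14 of the 238 higher genes (5.88%) and in 12.5% of all tested genes. They were the 2 highest in 13 of the lower genes (9.15%), in 40 of the higher genes (16.8%) and in 11.8% of all tested genes. In those 42 genes they thus lay nearer to the estrus level than the other 3 diestrus libraries did. Cyp17a1 and Inhba went against that order, with diestrus libraries 1 and 5 the highest.

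Lower genes with a different order included Tex14, known for intercellular bridges of germ cells, with 8.90, 10.4, 6.38, 7.02 and 3.86 CPM in estrus and 44.3, 23.4, 30.5, 44.8 and 35.6 CPM in diestrus (log2FC -2.28 ± 0.25, edgeR adjusted p = 0.000483). No library overlapped, but 11 small RNA genes or pseudogenes lie within Tex14 on the same strand. Rgs13, a regulator of G protein signalling, was at 0 to 0.930 CPM in estrus and 1.64 to 11.6 CPM in diestrus (log2FC -3.88 ± 0.65, edgeR adjusted p = 0.00712). Lrrtm3, a synaptic membrane protein, was at 0 to 2.21 CPM against 4.43 to 11.8 CPM (log2FC -3.38 ± 0.68, edgeR adjusted p = 0.0187), and its call was lost without estrus library 2 or 4 or diestrus library 3 (adjusted p of up to 0.0618). F10, clotting factor X, was at 0.521 to 1.93 and 3.01 to 13 CPM (log2FC -2.47 ± 0.44, edgeR adjusted p = 0.0105), and the unnamed gene 1110032F04Rik at 4.91 to 15.5 and 27.2 to 54.0 CPM (log2FC -1.89 ± 0.29, edgeR adjusted p = 0.00417).

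The same comparison in the 5 estrus and 5 diestrus libraries of FL1 shares no library with ctrl. There 2123 of 13350 genes (15.9%) passed, 990 higher (7.42%) and 1133 lower (8.49%). Of the 374 ctrl calls tested in FL1, 350 (93.6%) had the same sign and 237 (63.4%) were called in the same direction, while 61.5% of the 12994 genes tested in both lines had the same sign. The 237 genes were 11.4% of the 2073 FL1 calls tested in ctrl. Adcyap1, Ren1, Nts, Ptprn and Cyp11b1 had log2FC of 4.25, 4.54, 5.41, 5.04 and 5.96 in FL1, and Pappa2 one of 8.81. Of the 12 largest higher genes, 11 were tested in FL1 and all 11 were called higher there. Of the 12 largest lower genes 8 were called lower, with Cyp17a1 at -3.83, Cited1 at -3.26, Bace2 at -4.20 and Bpifb6 at -4.18. Rgs13, Lrrtm3, Tex14 and 1110032F04Rik did not pass in FL1, with log2FC of -0.62, -0.58, -0.21 and -0.31, and the interaction described next did not pass in these 4 genes. Hsd17b7 had a log2FC of -5.41 and Lhcgr one of -2.64.

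**Figure D5:**
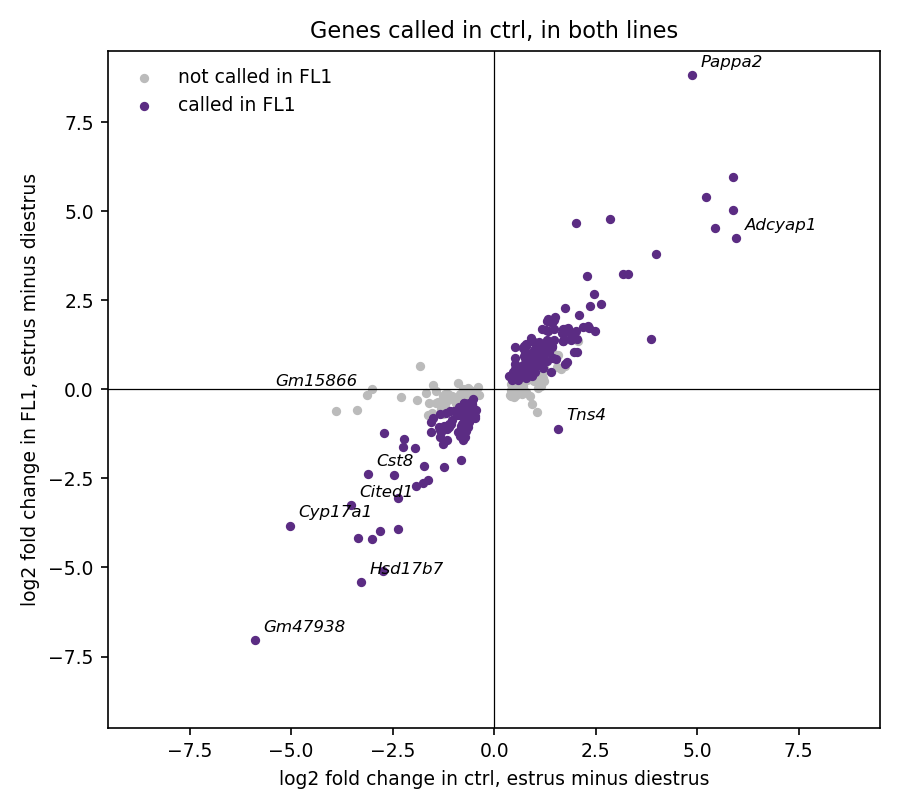
Each point is a gene called in ctrl and tested in both lines, placed by its log2FC (estrus minus diestrus) in ctrl and in FL1, purple where it was also called in FL1 and grey where it was not. Of 374 genes 350 lie in the quadrants of equal sign, and Tns4 is the 1 gene called in opposite directions.

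Whether the stage difference itself differed between the lines was tested with an interaction term of line and stage in a fit of the 20 libraries. It passed in 8 of 14154 genes (0.0565%), and in 152 (1.00%) by DESeq2. Tns4, a focal adhesion protein, was at 9.53, 8.96, 5.75, 5.76 and 7.05 CPM in ctrl estrus and at 1.70, 3.84, 2.86, 1.48 and 2.46 CPM in ctrl diestrus, with CPM scaled over all 20 libraries. In FL1 it was at 2.50, 1.35, 2.94, 3.40 and 3.75 CPM in estrus and 4.45, 6.03, 4.73, 10.5 and 4.51 CPM in diestrus. Its estrus libraries thus lay above the diestrus libraries in ctrl and below them in FL1, and the stage log2FC in ctrl minus that in FL1 was 2.68 (edgeR adjusted p = 0.0328). Gm15866, an antisense long non-coding RNA that overlaps C1qtnf7, was at 0.261 to 0.566 CPM in ctrl estrus and 2.93 to 4.78 CPM in ctrl diestrus. In FL1 it was at 2.25 to 5.89 CPM in estrus and 2.68 to 7.46 CPM in diestrus, and the difference of log2FC was -2.98 (edgeR adjusted p = 0.0328). Of the 4 groups, ctrl estrus was the lowest.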

How the data were processed

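RNA of ovaries was made into QuantSeq 3' mRNA-Seq forward libraries by the authors and sequenced on an Illumina HiSeq. Per the labels and the study's methods, reads were trimmed and aligned with STAR to GRCm38. The authors deposited raw counts per Ensembl gene, 1 table per library, without normalization. The counting tool and its strand setting are not given in the sources used here, although the submitters' processing notes also name Cuffdiff. No molecular identifiers are named, so reads are not independent molecules. Gapdh and Pgk1 were almost uncounted (means of 0.775 and 1.59 CPM over the ctrl libraries), and Eno1 averaged 9.06 CPM. Whether near-identical copies elsewhere in the genome lowered these counts was not tested.

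Groups came from the sample titles. The source name reads FL1 for all samples and was not used. All 10 ctrl libraries were kept, the number of other per-sample columns left unused was 0, and no pair of replicates agreed within sampling noise (chi-square per gene of 11.6 to 46.6). Nothing states that a library was split, and p-values measure the spread between these animals. Of 54838 listed genes, 54809 were found in GENCODE M21, which gave symbols and GRCm38 positions.

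Genes were tested by quasi-likelihood in edgeR 4.0.16 (R 4.3.3), with TMM normalization over the 10 ctrl libraries and the filterByExpr filter at 10 counts. Adjustment (Benjamini-Hochberg) ran over all tested genes, and a call is an adjusted p of 0.05 or less. The SE of a log2FC was taken as its size over the root of the F statistic. Distances and principal components used log2 CPM with a prior count of 2. FL1 was fitted in the same way, and the interaction over all 20 libraries. The scripts were tested on simulated data. Figures were drawn with matplotlib 3.10.9 in Python 3.11.15.

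The comparison and the 37 gene lists were chosen with earlier results of these data known, and no p was computed over a list. Of 685 list entries, 3 were not found, and some members are not reported here. Named genes were the 12 with the largest log2FC in each direction among called protein-coding genes without overlap between the stages and with a mean of at least 5 CPM in the higher stage, the 5 smallest adjusted p in each direction, list members, and genes called by the interaction. A copy is a gene elsewhere that holds at least 50 of the 31-base words of a gene's last 300 bases. Of 77 genes examined, 3 had one and 1 shared its end with an overlapping gene. Start regions came from the RefSeq table of GRCm38.p6.

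Alternatives were DESeq2's size factors in edgeR, DESeq2 1.42.0, limma-voom (limma 3.58.1), genes with at least 1 count in total, genes with at least 10 counts in every ctrl library, a single fit of the 20 libraries, a block for the replicate number, a prior count of 0.5 for the distances, and each library left out in turn.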

Additional observations from a re-analysis of the deposited data

Results flagged for a closer look

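Within a stage, 1 of the 5 libraries stood far from the other 4 in 14 of 142 groups of called genes, by a gap over 0.71 of the whole range. For independent normal values that gap is passed about 1 time in 20. That rate does not apply here, because the genes share libraries and CPM were used without a log. In groups near 0, such as Ptprn in diestrus, 1 library with counts is enough to pass. Estrus library 3 was the highest for Cyp11b1 (49.6 CPM, others 7.31 to 12.5), Ren1 (107 CPM, others 29.3 to 44.0), Mansc4 (22.1 CPM, others 5.08 to 8.90), Cyp17a1 (37.6 CPM, others 4.11 to 8.24) and Lrrtm3 (2.21 CPM, others 0 to 0.494). Estrus library 4 was the highest for Wnt4 (247 CPM, others 151 to 160) and Slc16a3 (35.1 CPM, others 16.1 to 20.2), and estrus library 1 for Mmp11 (278 CPM, others 155 to 189). Estrus library 5 was the highest for Bgn (550 CPM, others 315 to 370) and the lowest for Axin2 (11.2 CPM, others 21.9 to 23.0). In diestrus, library 5 was the highest for Ptprn (0.613 CPM, others 0) and Lepr (8.89 CPM, others 3.45 to 4.24), library 2 for Nts (0.683 CPM, others 0 to 0.149) and library 1 for Foxo1 (948 CPM, others 555 to 655).

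The stage log2FC in ctrl minus that in FL1 passed the interaction test of edgeR in 8 genes. It was 2.68 for Tns4 (adjusted p = 0.0328), 1.14 for Slc30a1, a zinc exporter (adjusted p = 0.0360), 0.97 for Plcb4, a phospholipase (adjusted p = 0.0360), 0.94 for Klf3, a transcription factor (adjusted p = 0.0328), and 0.67 for Taok1, a kinase (adjusted p = 0.0351). It was -2.98 for Gm15866 (adjusted p = 0.0328), -1.33 for Olfml2b, an extracellular matrix protein (adjusted p = 0.0351), and -1.15 for Echdc2, a mitochondrial protein (adjusted p = 0.0431). Apart from Tns4 and Gm15866, these genes did not pass in ctrl. Olfml2b was at 48.1 to 75.6 CPM in ctrl estrus, 60.2 to 82.8 CPM in ctrl diestrus, 48.3 to 86.0 CPM in FL1 estrus and 27.1 to 40.4 CPM in FL1 diestrus.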

How the results depend on the processing

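Against 380 genes called in ctrl, DESeq2's Wald test called 768 and 1 fit of all 20 libraries 909, while DESeq2's size factors in edgeR gave 384, limma-voom 346, genes with at least 1 count in total 524 and genes with at least 10 counts in every ctrl library 350. With at least 1 count in total, 54.6% of the calls were higher in estrus instead of 62.6%. Leaving out 1 library gave 176 to 516 calls. Replicate numbers do not pair the samples (correlation of same-numbered deviations 0.106, -0.016, 0.023, 0.002 and -0.029, with only number 1 correlating best with its own number), and the fit with them as a block called 259 genes, 216 of them shared. Of the list members 47 were called, against 89 by DESeq2, 78 with at least 1 count in total, 104 in the fit of all 20 libraries, 40 with the block and 28 to 65 without 1 library. Of the 24 genes with the largest changes, 11 were tested and called among genes with at least 10 counts in every ctrl library, since most fall below that count in the lower stage, 22 with the block and 22 to 24 without 1 library. The interaction called 8 genes by edgeR and 152 by DESeq2, and FL1 gave 2123 and 2424. The distance between stages was 7.56 when only genes of at least 10 counts in every ctrl library were used, 10.4 with a prior count of 0.5 and 7.58 to 11.3 without 1 library, against 9.83. Of the 71 single genes called and followed, limma-voom lost 6 and the block 16, no direction turned in any of the alternatives run, and DESeq2, its size factors, the fit of all 20 libraries and the filter of at least 1 count lost none. The cause of these changes was not tested. Depth limits the low genes, since Ptprn, Nts, Pappa2 and Gm15866 had few or no counts in 1 stage.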

Other observations

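The genes below were chosen after their values were seen and belong to no list, and genes of like function were not tallied. Pnoc, the precursor of the neuropeptide nociceptin, was at 1.99, 3.29, 1.43, 2.34 and 3.16 CPM in estrus and at 0, 0.273, 0, 0.328 and 0.153 CPM in diestrus (log2FC 3.98 ± 0.63, edgeR adjusted p = 0.00533). Sstr1, a somatostatin receptor, was at 22.7, 34.6, 31.4, 24.3 and 38.0 CPM against 4.14, 13.2, 10.9, 4.59 and 4.6 CPM (log2FC 2.01 ± 0.32, edgeR adjusted p = 0.00542). Neither gene overlapped between the stages. Npr3, which clears natriuretic peptides, had a log2FC of 1.89 ± 0.33 (edgeR adjusted p = 0.00862), and Ramp1, a subunit of the CGRP receptor, one of 1.80 ± 0.36 (edgeR adjusted p = 0.0181). Pcsk5, a proprotein convertase that cuts hormone and growth factor precursors, was at 115, 160.5, 188, 198 and 117 CPM in estrus and at 45.9, 42.1, 50.2, 36.1 and 50.1 CPM in diestrus (log2FC 1.80 ± 0.17, edgeR adjusted p = 0.000122). In FL1 the log2FC of these 5 genes was 3.80, 1.63, 1.56, 0.76 and 1.63, and all 5 passed there.

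Glul, the glutamine synthetase, was at 678, 356, 583, 376 and 422 CPM in estrus and at 216, 151, 178, 131 and 194 CPM in diestrus (log2FC 1.47 ± 0.19, edgeR adjusted p = 0.00175). Alpl, tissue-nonspecific alkaline phosphatase, had a log2FC of 2.03 ± 0.27 (edgeR adjusted p = 0.00175), and the connective tissue genes Dpt, Cilp and Mfap5 had log2FC of 1.89 ± 0.34, 2.20 ± 0.43 and 1.2 ± 0.17. Gm47938, an antisense long non-coding RNA that overlaps Cnnm1 on the other strand, was at 0, 0.165, 0, 1.22 and 0 CPM in estrus and at 13.7, 21.3, 27.9, 45.4 and 1.69 CPM in diestrus (log2FC -5.90 ± 0.91, edgeR adjusted p = 0.00421), and its log2FC in FL1 was -7.05. Rasgrp1, a Ras activator, was at 0.531 to 1.93 CPM in estrus and at 3.77, 16.9, 13.7, 12.1 and 1.53 CPM in diestrus (log2FC -2.81 ± 0.60, edgeR adjusted p = 0.0239). Diestrus library 5 was the lowest of its stage in Gm47938 and Rasgrp1. Myf5, known as a muscle lineage factor, was at 0 to 1.48 CPM in estrus and 2.73 to 4.14 CPM in diestrus (log2FC -3.02 ± 0.62, edgeR adjusted p = 0.0202), and its log2FC in FL1 was 0.02. It was not among the 8 genes that passed the interaction of line and stage.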
